A study of Mus musculus with 6 samples.

Results

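The genes described here are 10 genes that mark B cells and plasma cells, namely *Ighm*, *Igkc*, *Ighg1*, *Ighg2b*, *Ighg2c*, *Igha*, *Jchain*, *Cd79a*, *Cd79b* and *Mzb1*, chosen by symbol from the 53819 genes listed in bulk RNA-seq of healing mouse tendon. RNA was sequenced from flexor digitorum longus (FDL) tendons of 3 DTR mice (Scx-Cre+; DTR F/+, also written DTRScxLin) and 3 WT littermates (Scx-Cre-; DTR F/+), with 1 tendon per library. All 6 mice therefore carried the floxed diphtheria toxin receptor allele, had a tendon repair at 10 to 12 weeks of age, and received 5 daily injections of diphtheria toxin (DT) from D14 to D18 post-surgery, before harvest at D28. The sample titles count D28 from the depletion, while the labels' protocol and the paper count it from surgery, and the latter is used here. Scx-Cre is not inducible, so the receptor is present in all cells with a history of *Scx* expression and not in tendon cells of the adult alone, and both sexes were used.

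B cells carry an antibody molecule on their surface as the B cell receptor, in which the immunoglobulin chains are joined to the signalling proteins *Cd79a* and *Cd79b*. A naive B cell makes IgM and IgD (heavy chain genes *Ighm* and *Ighd*) from the same rearranged variable segment, and class switching moves that segment next to a gene for IgG (*Ighg1*, *Ighg2b*, *Ighg2c*, *Ighg3*), IgA (*Igha*) or IgE (*Ighe*). Plasma cells no longer depend on the surface receptor and secrete large amounts of antibody, with the chaperone *Mzb1* helping assembly and the J chain (*Jchain*) joining IgM and IgA into polymers. Each clone of B cells or plasma cells uses its own variable segments for the heavy (*Ighv*) and light (*Igkv* or *Iglv*) chains, so the segments detected in a tissue bear on how many clones were sampled.

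The IgG genes arose by duplication, and the counts of a subclass rest on the bases at which it differs from its neighbours. The first 120 coding bases of the 3 IgG genes among the 10 are shown because the difference between genotypes given below was in *Ighg2c*. Capitals mark bases that differ from *Ighg2c*, and the sequences were read from GRCm38, minus strand of chromosome 12, at chr12:113288813-113288932, chr12:113307814-113307933 and chr12:113330404-113330523.
Ighg2c: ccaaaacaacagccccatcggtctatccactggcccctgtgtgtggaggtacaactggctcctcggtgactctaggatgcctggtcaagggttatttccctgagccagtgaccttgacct
Ighg2b: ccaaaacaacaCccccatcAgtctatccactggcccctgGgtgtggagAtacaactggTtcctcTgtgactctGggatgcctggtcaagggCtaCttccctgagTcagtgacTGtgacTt
Ighg1: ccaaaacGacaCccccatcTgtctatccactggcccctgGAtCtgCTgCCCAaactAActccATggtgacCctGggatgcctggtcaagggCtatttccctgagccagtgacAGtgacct

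*Ighg2b* differed from *Ighg2c* at 13 of these 120 bases and *Ighg1* at 21. Over the first 4 coding exons, *Ighg2c* was 85.1% identical to *Ighg2b* and 74.8% identical to *Ighg1*. Of the 950 stretches of 50 bases in those exons of *Ighg2c*, 56 also occurred in *Ighg2b* and 0 in *Ighg1*, *Ighg3* or *Igha*. A read from one of the shared stretches could be counted on either gene or left out, and the aligner and the handling of such reads are not given in the sources used here. For *Iglc2* and *Iglc3*, 2 lambda light chain genes that were 96.2% identical, 38 of 266 stretches were shared, so their separate counts are uncertain.

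Between 42744138 and 48854310 reads per library were counted on genes, and the authors' size factors lay between 0.973 and 1.06, so a count of 0 in a library allows for up to 3 counts. Normalized counts were scaled with TMM, the scaling of edgeR, to the average depth of the 6 libraries, with mean ± SD of 3 libraries, and log2 fold changes are of DTR over WT from edgeR's quasi-likelihood test with Benjamini-Hochberg adjustment over the 17496 genes that passed its filter on low counts. Values of single libraries are listed for replicates 1, 2 and 3 of a genotype in that order. All 12 tendon markers on the list passed that filter, with *Scx* at 2201, 2703 and 3063 (WT) against 3475, 3406 and 3531 (DTR) normalized counts. Skeletal muscle markers made up from 0.318% to 2.55% of the counts, with DTR replicates 1 and 3 lowest, and keratinocyte markers from 0.00135% to 0.323%, with WT replicates 1 and 2 highest. *Xist*, which is transcribed in female cells, had 49303 counts in WT replicate 2, 53828 and 54082 in DTR replicates 2 and 3, and at most 4 counts in the others, so the sexes were split unequally between the genotypes. In whole tendon, fewer cells of a type and less RNA per cell cannot be told apart.

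Of the 10 genes, 7 passed the filter on low counts, and *Ighg1*, *Ighg2b* and *Mzb1* did not. edgeR called 0 of the 7 at an adjusted p under 0.05, as it called 0% of all genes tested, and 1 of the 7 (*Ighg2c*) had an unadjusted p under 0.05, where 11.0% of all genes did. DESeq2 called 1 of the 7, again *Ighg2c*, and 2.65% of all genes it adjusted. The DTR and WT libraries did not overlap for 1 of the 7, with DTR lower, beside 16.8% of all genes in either direction (7.85% with DTR lower and 8.96% with DTR higher). That gene, again *Ighg2c*, passed the filter through its WT libraries alone. The median log2 fold change was −0.35 over the 7 genes and 0.0082 over all genes tested, and 5 of the 7 were fitted lower in DTR, where 48.5% of all genes were.

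**Figure D1:**
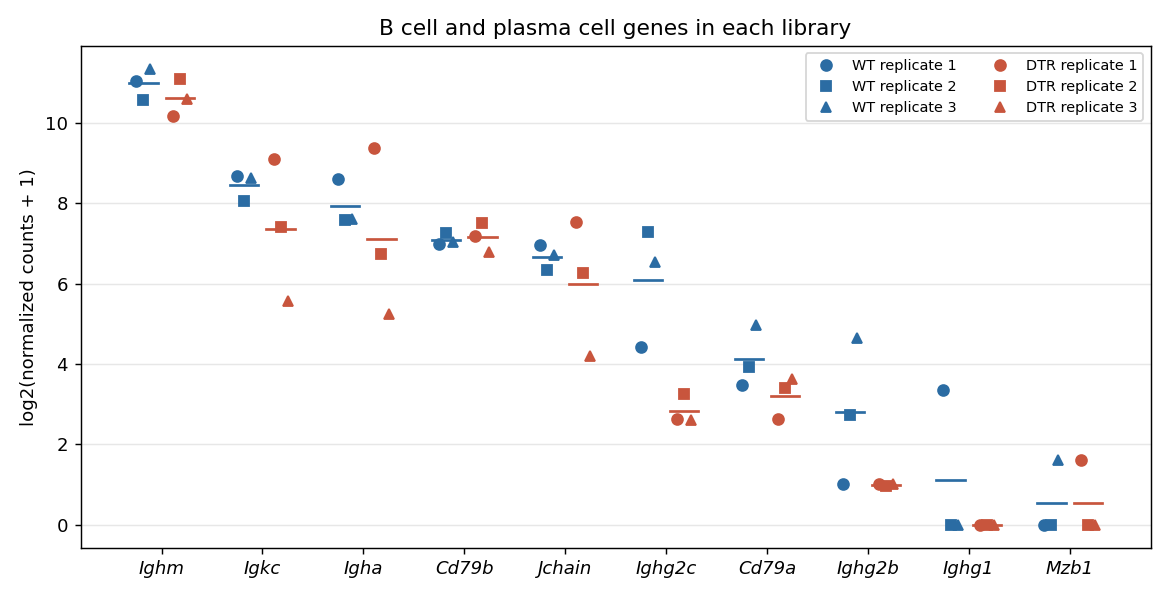
Normalized counts of the 10 genes in each library, on the scale log2(normalized counts + 1), with WT in blue, DTR in red, 1 symbol per replicate number and a line at the mean of each group. *Ighg2c* is the gene whose 3 DTR libraries all lie below the 3 WT libraries among those that passed the filter, and the 3 DTR libraries are widely spread for *Igkc*, *Igha* and *Jchain*.

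Per kilobase of exon (the union of a gene's exons in GENCODE, since the authors' annotation is not given in the sources used here), *Ighm* was the most abundant of the 10, with a median of 959 normalized counts per kb and a range from 611 to 1373 over the 6 libraries. *Igkc*, the constant region of the kappa light chain, followed at 621 and ranged from 86.9 to 1034, so the 2 ranges overlapped. *Cd79b* had 96.1 (76.8 to 126) normalized counts per kb and *Igha* 71.9 (13.9 to 247), which overlapped as well. Below them came *Jchain* at 36.1 (6.94 to 73.3), *Ighg2c* at 10.9 (3.87 to 116) and *Cd79a* at 7.36 (3.54 to 20.7) normalized counts per kb, each overlapping its neighbour in the order. *Ighg2b* had a median of 0.384 normalized counts per kb, and *Ighg1* and *Mzb1* were at 0 in most libraries.

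*Ighg2c*, which encodes the constant region of the IgG2c subclass found in C57BL/6 mice in place of IgG2a, had 20.3, 153 and 92.5 (WT) against 5.15, 8.61 and 5.14 (DTR) normalized counts. Every DTR library lay below every WT library, although the WT libraries themselves spanned 7.56-fold. The means were 88.7 ± 66.7 normalized counts in WT and 6.30 ± 2.00 in DTR (SD, n = 3 each), and the log2 fold change was −3.79 ± 0.77 (SE), with an unadjusted p of 0.00165 and an adjusted p of 0.274 by edgeR's quasi-likelihood test. DESeq2 gave a log2 fold change of −3.81 with an adjusted p of 3.3e-05, so the call depended on the tool, and over the 19 alternatives that tested the gene the adjusted p ranged from 3.3e-05 to 0.821. The raw counts in DTR were 5, 9 and 5, so those 3 values carry a large counting error. In WT they were 20, 163 and 89, and the gene passed edgeR's filter on low counts through WT alone. A gene admitted that way can hardly be fitted higher in DTR, so its direction and lack of overlap are not independent of the filter.

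The erythroid markers, which come from red cells of the blood, moved with *Ighg2c*. Their sum was 4493, 5745 and 10189 (WT) against 2730, 4230 and 2570 (DTR) normalized counts. All 6 of the 6 tested markers of 8 listed (among them *Hba-a1*, *Hba-a2*, *Hbb-bs*, *Hbb-bt* and *Alas2*) were fitted lower in DTR with an unadjusted p under 0.05. Of all genes, 5.45% had such a p with DTR lower. The other 2 markers had at most 10 counts in any library. Across the 6 libraries the log2 normalized counts of *Ighg2c* had a Pearson r of 0.86 and a Spearman rho of 0.94 with the erythroid sum, a description over points that share 2 genotypes. With the mean of the erythroid markers as a covariate, an alternative chosen after the data were seen, the log2 fold change of *Ighg2c* was −2.67 ± 1.27 (SE) with an unadjusted p of 0.0792 and an adjusted p of 0.502 by edgeR. The erythroid sum was itself lower in every DTR library than in every WT library, so this fit cannot tell blood content from genotype. The part of blood content in the difference was not tested.

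The other IgG genes were near the limit of detection. *Ighg2b* had 1, 6 and 23 counts in the WT libraries and 1 count in each DTR library, so that WT replicate 1 equalled the DTR libraries. It did not pass edgeR's filter, and DESeq2 gave an unadjusted p of 0.0233 and no adjusted p. *Ighg1* had 9 counts in WT replicate 1 and 0 in the other 5 libraries, and *Ighg3* had 0 in all 6. *Ighe*, the IgE heavy chain, had 1 count in DTR replicate 3 and 0 elsewhere.

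**Figure D2:**
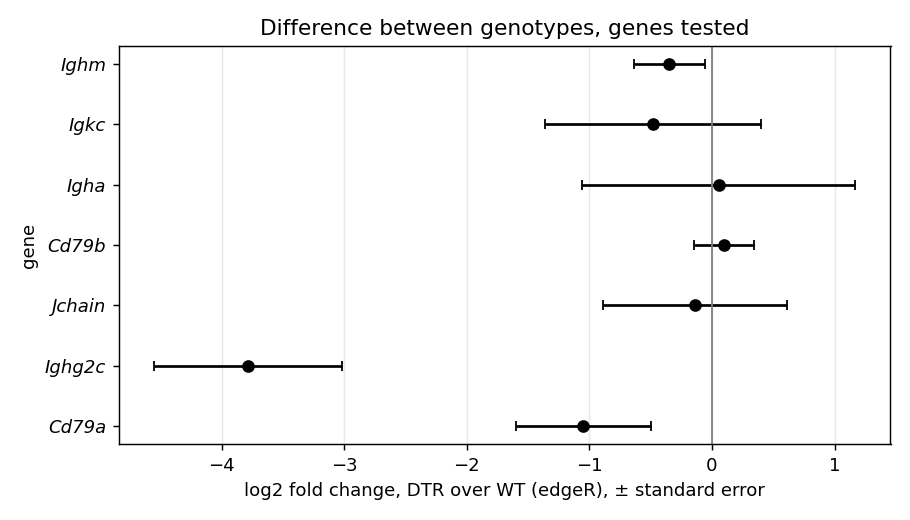
Log2 fold changes (DTR over WT) from edgeR for the 7 genes that passed the filter on low counts, with bars for the standard error. *Ighg2c* lies at −3.79, and the bars of *Igkc*, *Igha* and *Jchain*, with standard errors from 0.75 to 1.12, span 0.

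*Igha*, the heavy chain of IgA, had 388, 189 and 194 (WT) against 658, 106 and 37.0 (DTR) normalized counts. DTR replicate 1 was the highest and DTR replicate 3 the lowest of all 6, so the WT libraries lay inside the DTR range. The means were 257 ± 113 in WT and 267 ± 341 in DTR (SD, n = 3 each), with a log2 fold change of 0.06 ± 1.12 (SE) and an adjusted p of 0.989 by edgeR. The standard error leaves room for a several-fold difference in either direction, and the p does not show that the genotypes were alike. *Igkc* had the same order of libraries, with 404, 265 and 396 (WT) against 550, 167 and 46.2 (DTR) normalized counts. Its log2 fold change was −0.48 ± 0.88 (SE; adjusted p = 0.875 by edgeR), with means of 355 ± 78.2 in WT and 255 ± 263 in DTR (SD, n = 3 each). *Jchain*, the joining chain of polymeric IgA and IgM, had 124, 79.1 and 103 (WT) against 184, 75.5 and 17.5 (DTR) normalized counts. Its log2 fold change was −0.14 ± 0.75 (SE; adjusted p = 0.960 by edgeR).

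For these 3 genes the spread within a genotype was larger than the difference between genotypes. The highest DTR library was 11.9-fold above the lowest for *Igkc*, 17.8-fold for *Igha* and 10.6-fold for *Jchain*, against 1.53-fold, 2.05-fold and 1.57-fold between WT libraries. Whether the spread itself differed between the genotypes was not tested. Over the 6 libraries, log2 normalized counts correlated with a Pearson r of 0.95 between *Igkc* and *Igha*, 0.98 between *Igkc* and *Jchain* and 0.95 between *Igha* and *Jchain*, and the 3 genes ranked the libraries identically (Spearman rho of 1 for each pair). DTR replicates 1 and 3 decided the fitted differences. Without DTR replicate 1, the log2 fold change was −1.73 for *Igkc* (unadjusted p = 0.0287) and −1.84 for *Igha* (unadjusted p = 0.0204) in edgeR's fit, with adjusted p of 0.660 and 0.637 (0.560 to 0.994 and 0.553 to 1.00 over all alternatives), and 4 of the 7 genes (*Igkc*, *Igha*, *Jchain* and *Ighg2c*) then had DTR libraries that did not overlap WT, all lower, beside 24.4% of the 18037 genes of that fit in either direction. Without DTR replicate 3, the log2 fold change was 0.017 for *Igkc*, 0.57 for *Igha* and 0.35 for *Jchain*.

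DTR replicate 1 also stood apart in its neutrophil markers. The sum of that list was 11779 normalized counts there and from 881 to 2177 in the other 5 libraries, with 5 of 8 markers tested, all 5 fitted higher in DTR and 0 at an unadjusted p under 0.05. The markers *Mpo* and *Elane* were at 5 counts or fewer in every library and *Ly6g* at 4 or fewer. Pan leukocyte genes, in contrast, summed to between 32888 and 46895 normalized counts, with DTR replicate 1 and WT replicate 1 highest, and 0 of 10 had an unadjusted p under 0.05. With the mean of the pan leukocyte genes as a covariate, edgeR gave log2 fold changes of −1.40 ± 0.65 for *Igkc*, −1.26 ± 0.58 for *Igha* and −0.86 ± 0.56 for *Jchain* (SE), with unadjusted p of 0.0897, 0.0813 and 0.177 and adjusted p of 0.560, 0.553 and 0.630. The sign for *Igha* was thus opposite to that without the covariate, and 0 of the 3 genes had an unadjusted p under 0.05. The part of neutrophils in these levels was not tested.

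*Ighm*, the heavy chain of IgM, had 2079, 1520 and 2589 (WT) against 1153, 2169 and 1538 (DTR) normalized counts. DTR replicate 1, the highest library for *Igha* and *Igkc*, was the lowest for *Ighm*, and the groups overlapped. The means were 2063 ± 535 and 1620 ± 513 (SD, n = 3 each), with a log2 fold change of −0.35 ± 0.29 (SE) and an adjusted p of 0.672 by edgeR. With the erythroid and the muscle covariate it was 0.16 and 0.029. *Ighd*, the IgD heavy chain that naive B cells make together with IgM, had 41.6, 25.4 and 57.1 (WT) against 12.4, 30.6 and 26.7 (DTR) normalized counts, with a log2 fold change of −0.83 ± 0.46 (SE; adjusted p = 0.521 by edgeR). *Ighm* and *Ighd* ordered the libraries almost identically (Pearson r of 0.94 on log2 values, Spearman rho of 0.94), whereas *Ighm* and *Igkc* did not (0.05 and −0.26). As a result, the number of *Ighm* counts for each *Igkc* count was 5.15, 5.75 and 6.54 in WT and ranged from 2.10 in DTR replicate 1 to 33.3 in DTR replicate 3.

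**Figure D3:**
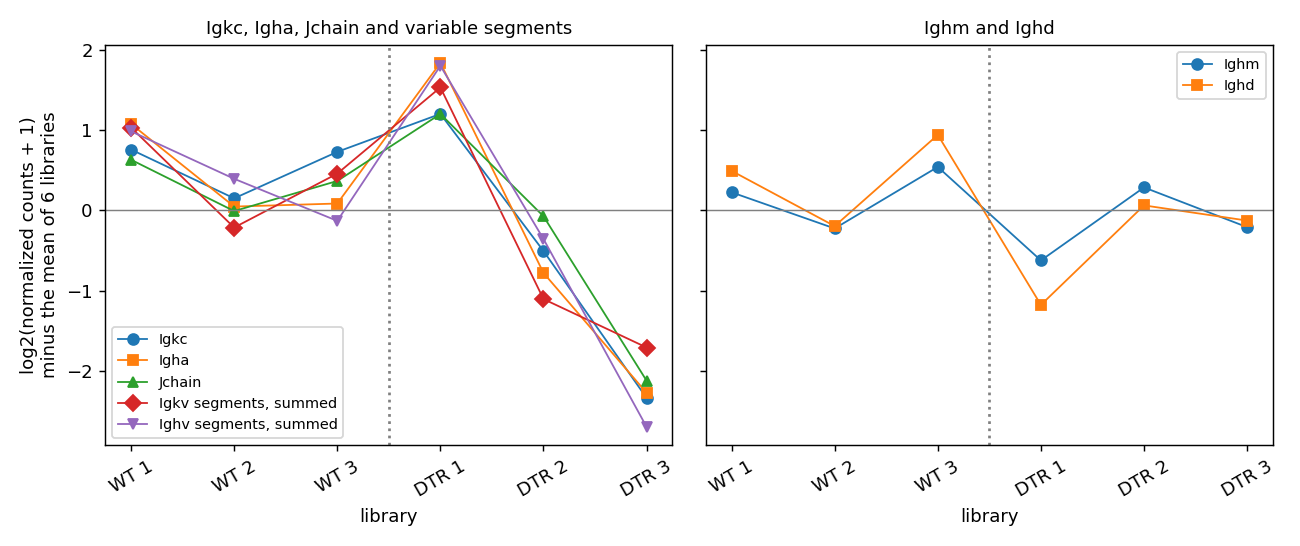
Log2(normalized counts + 1) of each gene or sum minus its mean over the 6 libraries, plotted by library, with the dotted line between WT and DTR. *Igkc*, *Igha*, *Jchain* and the summed variable segments are highest in DTR replicate 1 and lowest in DTR replicate 3, while *Ighm* and *Ighd* are lowest in DTR replicate 1.

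The makeup of the heavy chain counts followed from these orders. *Ighm* held 81.9%, 80.3% and 87.6% of all heavy chain constant counts in WT and 63.0%, 93.7% and 95.6% in DTR libraries, so DTR replicate 1 was below and the other 2 DTR libraries above the WT range. Among switched isotypes (IgG, IgA and IgE), the IgG genes held 7.28% of counts in WT replicate 1 (exact 95% binomial interval 4.97% to 10.2%, 30 of 412 counts), 45.7% in replicate 2 (40.5% to 50.9%, 169 of 370) and 37.5% in replicate 3 (32.0% to 43.2%, 112 of 299). In DTR they held 0.930% (0.342% to 2.01%, 6 of 645), 8.26% (4.03% to 14.7%, 10 of 121) and 13.95% (5.30% to 27.9%, 6 of 43). The intervals of DTR replicates 2 and 3 overlapped that of WT replicate 1, so the IgG share did not separate the genotypes as the level of *Ighg2c* did. All intervals cover counting error only, since reads copied by PCR are not independent molecules.

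**Figure D4:**
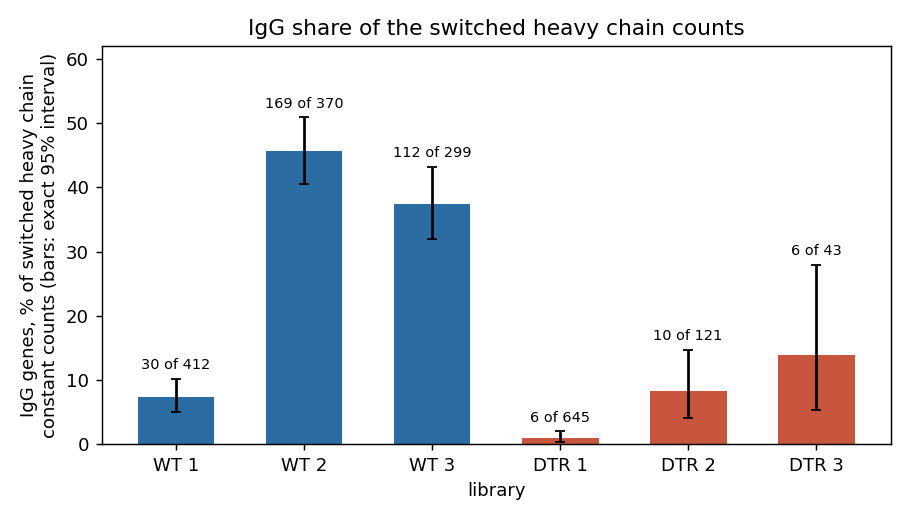
Percent of the switched heavy chain constant counts (IgG, IgA and IgE genes) that lay on IgG genes in each library, with exact 95% binomial intervals and the counts behind each bar. WT replicates 2 and 3 stand at 45.7% and 37.5%, and the other 4 libraries are at 13.95% or lower.

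Light chain counts were mostly kappa. Lambda constant genes held 7.23%, 23.4% and 7.75% of light chain constant counts in WT and 9.34%, 2.78% and 15.1% in DTR libraries, with the last share resting on 8 of 53 counts. The high lambda share of WT replicate 2 came from *Iglc1*, which had 3, 72 and 9 counts in WT and 43, 1 and 1 in DTR libraries. The variable segment *Iglv1*, which joins to *Iglc1*, followed it with 4, 33 and 5 counts in WT and 40, 0 and 0 in DTR (Pearson r of 0.97 on log2 normalized counts over 6 libraries). Each gene had more counts in 1 WT and 1 DTR library than in the other 4 together. The antisense gene that overlaps *Iglc1* and *Iglv1* in GENCODE had 0 counts in all libraries, as did *Iglj2*, which overlaps *Iglc2*. The long noncoding RNA that overlaps *Igkc* on the same strand had at most 2 counts.

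Variable segments gave a readout of antibody genes that the choice of the 10 genes did not use. Of 346 segments listed (183 *Ighv*, 160 *Igkv* and 3 *Iglv*), 93 had a count in any library, 48 had counts in 1 library only, 1 was found in all 6, and 0 had enough counts to be tested. Summed *Ighv* counts were 90, 64 and 40 in WT and 157, 37 and 6 in DTR libraries. Summed *Igkv* counts were 182, 82 and 119 in WT and 254, 43 and 26 in DTR. Both sums were highest in DTR replicate 1 and lowest in DTR replicate 3, as for *Igkc*, *Igha* and *Jchain*, and the groups overlapped. The *Ighv* sum correlated with *Igha* (Pearson r of 0.98 on log2 values) and not with *Ighm* (−0.18), although all heavy chains need a variable segment. For each 100 counts of *Ighm* there were 4.39, 3.96 and 1.61 *Ighv* counts in WT and 14.03, 1.63 and 0.401 in DTR libraries. Against the switched isotypes the *Ighv* counts kept a narrower ratio, from 0.134 to 0.306 per count.

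The segments in use differed from tendon to tendon. *Igkv12-89*, a kappa segment at chr6:68834846-68835307 of GRCm38, had 63 counts in WT replicate 1, 58 in DTR replicate 1 and 0 in the other 4 libraries, and made up 34.6% (exact 95% interval 27.7% to 42.0%) and 22.8% (17.8% to 28.5%) of the *Igkv* counts of those 2 libraries. Its relative *Igkv12-98* had counts in the same 2 libraries, 12 in WT replicate 1 and 5 in DTR replicate 1. The first 150 bases of the second coding exon of both segments are shown because reads shared between near copies could give such a match. Capitals mark the bases at which *Igkv12-98* differs in an alignment with gaps, in which bases missing from *Igkv12-98* carry no mark. The positions are chr6:68834994-68835143 on the minus strand and chr6:68570938-68571087 on the plus strand of GRCm38.
Igkv12-89: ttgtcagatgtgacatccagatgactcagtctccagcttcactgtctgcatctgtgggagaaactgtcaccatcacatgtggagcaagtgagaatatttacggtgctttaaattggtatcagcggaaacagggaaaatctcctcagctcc
Igkv12-98: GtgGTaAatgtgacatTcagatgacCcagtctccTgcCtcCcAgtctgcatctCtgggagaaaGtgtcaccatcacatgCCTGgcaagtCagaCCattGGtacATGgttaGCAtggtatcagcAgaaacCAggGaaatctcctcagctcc

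The alignment of these 150 bases differed in 33 columns, gaps included. The 2 segments were 76.2% identical over their coding sequence and shared 0 stretches of 50 bases. Other segments were likewise seen in few libraries. *Igkv3-10* had 31 counts in WT replicate 2 and 0 elsewhere, *Ighv9-3* had 31 in DTR replicate 1 and at most 1 elsewhere, and *Ighv1-18* had 29 and 7 in WT replicates 1 and 2 and 0 in the other 4. *Igkv1-117* was the most widely seen of the abundant kappa segments, with 4, 1 and 30 counts in WT and 48, 0 and 1 in DTR libraries. *Ighv1-81* had 4, 3 and 0 counts in WT and 32, 9 and 1 in DTR. In each library the leading *Ighv* and *Igkv* segment held from 20.4% to 53.8% of its family, and with sums as low as 6 counts a segment at 0 may have been missed.

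**Figure D5:**
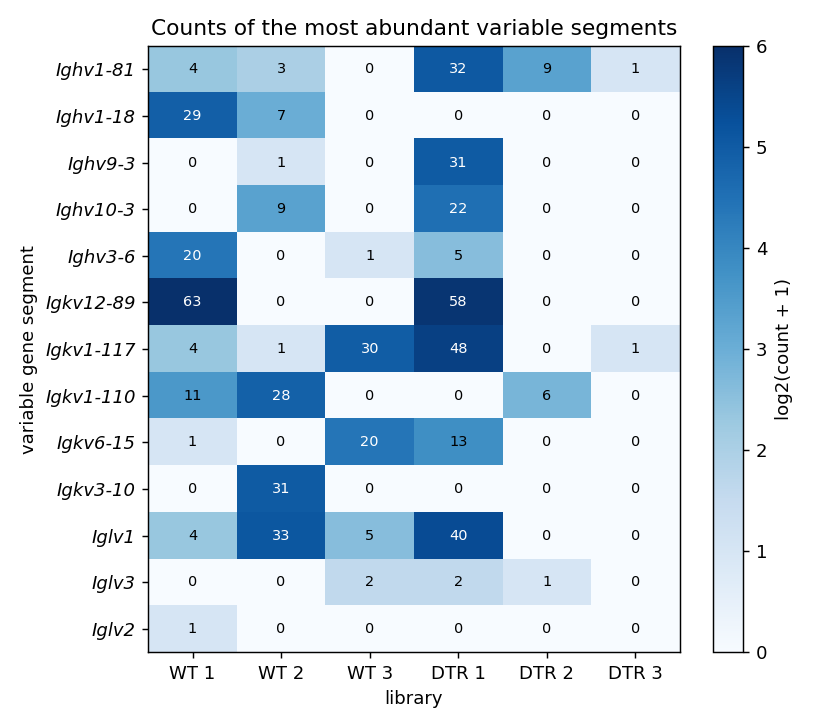
Raw counts of the 5 most abundant *Ighv* and *Igkv* segments and of the 3 *Iglv* segments in each library, with the colour on the scale log2(count + 1). Most rows are dark in 1 or 2 libraries and at 0 in several others, and DTR replicate 3 has at most 1 count in any row. The rows were chosen by total count over the 6 libraries. The leading *Igkv* segment of DTR replicate 3, *Igkv4-91* with 14 of its 26 *Igkv* counts, is not among them.

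*Cd79b* and *Cd79a*, the 2 signalling partners of the B cell receptor, had unequal levels. *Cd79b* had 125, 152 and 130 (WT) against 145, 180 and 110 (DTR) normalized counts, so the groups overlapped. Its log2 fold change was 0.10 ± 0.24 (SE; adjusted p = 0.914 by edgeR). *Cd79a* had 10.1, 14.1 and 30.1 (WT) against 5.15, 9.56 and 11.3 (DTR) normalized counts, with a log2 fold change of −1.05 ± 0.55 (SE; adjusted p = 0.509 by edgeR). DTR replicate 3 was above WT replicate 1, so these groups overlapped too, and with the erythroid covariate the log2 fold change was 0.27 ± 0.79 (SE). There were from 4.31 to 28.2 counts of *Cd79b* for each count of *Cd79a* although the proteins pair in the receptor and the genes have exons of similar summed length, 1457 bases for *Cd79a* and 1431 for *Cd79b*. The 2 genes did not follow each other over the libraries (Pearson r of −0.22 on log2 values, Spearman rho of −0.26).

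*Mzb1*, the chaperone of antibody assembly that is abundant in plasma cells, had 2 counts in WT replicate 3, 2 in DTR replicate 1 and 0 in the other 4 libraries. At this depth it was not detectable in most tendons, also in WT replicate 1, where *Igkc* had 398 and *Igha* 382 counts. *Spata24* overlaps *Mzb1* on the same strand in GENCODE and had from 50 to 69 counts per library, and how reads shared by 2 genes were counted is not given in the sources used here, so the low counts do not show that *Mzb1* was absent. Other plasma cell genes were measured, but from tissue in which other cells use them too. Of the 12 plasma cell factors and surface genes, 12 were tested, 4 were fitted higher and 8 lower, and 0 had an unadjusted p under 0.05, with a median log2 fold change of −0.083. The abundant *Xbp1*, a transcription factor of secretory cells, had from 8168 to 9099 normalized counts in all 6 libraries, and *Sdc1*, the plasma cell surface proteoglycan that other cells also carry, from 6095 to 8573.

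The B cell receptor and surface genes were mostly fitted lower in DTR, without a call by edgeR. Of 19 listed, 14 were tested, 3 were fitted higher and 11 lower, and 0 and 2 of these had an unadjusted p under 0.05, beside 5.52% and 5.45% of all genes, with a median log2 fold change of −0.20. *Ms4a1*, the B cell surface protein CD20, had 18.3, 19.8 and 18.7 (WT) against 7.21, 5.74 and 9.25 (DTR) normalized counts. All 3 DTR libraries lay below all 3 WT libraries, and the log2 fold change was −1.34 ± 0.39 (SE) with an unadjusted p of 0.00945 and an adjusted p of 0.353 by edgeR and 0.368 by DESeq2. The raw counts of *Ms4a1* were 18, 21 and 18 in WT and 7, 6 and 9 in DTR. It thus also passed edgeR's filter through WT alone, which favours a lower value in DTR, and the DTR values carry a large counting error. *Cd24a*, a surface protein of B cells and many other cells, had 3018, 2733 and 1674 (WT) against 1066, 1666 and 688 (DTR) normalized counts. Its log2 fold change was −1.12 ± 0.40 (SE; adjusted p = 0.439 by edgeR and 0.0115 by DESeq2). *Ly6d*, on the list as an early B cell marker, had 4610 and 2505 normalized counts in WT replicates 1 and 2 and at most 454 in the others, and the keratinocyte markers were highest in the same 2 libraries. *Cr2*, *Fcmr*, *Fcrl5*, *Cxcr5* and *Vpreb3* did not pass the filter.

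Of the 18 genes of B cell signalling and transcription, 18 were tested, 4 were fitted higher and 14 lower, with a median log2 fold change of −0.15. Of all genes, 48.5% were fitted lower. Of the 14, 2 had an unadjusted p under 0.05, beside 5.45% of all genes with DTR lower. The groups did not overlap, with DTR lower, for 2 of the 18, beside 7.85% of all genes. *Blnk*, the adaptor below the B cell receptor that macrophages express as well, had 979, 790 and 802 (WT) against 739, 647 and 654 (DTR) normalized counts, which did not overlap (log2 fold change −0.33 ± 0.12 (SE), adjusted p = 0.422 by edgeR). *Ciita*, the activator of class II histocompatibility genes, had 798, 511 and 476 in WT and 439, 320 and 455 in DTR, again without overlap (−0.56 ± 0.23 (SE), adjusted p = 0.453). *Ebf1*, a factor of the B lineage that is also used by stromal cells, was the most abundant of the list, at 2735 to 4418 normalized counts in WT and 4113 to 6245 in DTR libraries.

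Of the 10 germinal centre and switching genes listed, 8 were tested, 5 were fitted higher and 3 lower, with a median of 0.018. At an unadjusted p under 0.05 there was 1 in each direction, beside 5.52% of all genes higher and 5.45% lower. *Bcl6*, a repressor needed for germinal centres and used by other cells, had 2888, 2589 and 2411 (WT) against 1700, 2071 and 1660 (DTR) normalized counts, with no overlap. Its log2 fold change was −0.54 ± 0.12 (SE; adjusted p = 0.274 by edgeR and 0.0132 by DESeq2). Among early B cell development genes, *Rag2* was at 0 in all libraries, *Rag1* at 3 counts or fewer, and 0 of 5 tested had an unadjusted p under 0.05 (median 0.20, 3 fitted higher and 2 lower).

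The secretory partners of antibody synthesis were mostly fitted higher in DTR, in a tissue whose matrix-producing cells use them as well. Of 16 tested, 13 were fitted higher in DTR and 3 lower, where 48.5% of all genes were fitted lower. At an unadjusted p under 0.05 there were 2 and 0, beside 5.52% and 5.45% of all genes, and the median was 0.12. *Txndc5*, a disulfide isomerase of the endoplasmic reticulum, had 11686, 11721 and 14329 (WT) against 18219, 15787 and 16720 (DTR) normalized counts, without overlap (log2 fold change 0.43 ± 0.12 (SE), adjusted p = 0.347 by edgeR and 0.0397 by DESeq2). *Fkbp11*, a prolyl isomerase of secretory cells, had 472, 509 and 813 in WT and 817, 841 and 1006 in DTR, also without overlap (0.57 ± 0.22 (SE), adjusted p = 0.434 by edgeR and 0.166 by DESeq2). As the lack of overlap implies, both were higher than in any WT library also in DTR replicate 3, the lowest for *Igha*, *Igkc* and *Jchain*. *Derl3* went the other way without overlap, with 25.4, 16.9 and 21.8 (WT) against 12.4, 15.3 and 14.4 (DTR) normalized counts. Its log2 fold change was −0.60 ± 0.35 (SE; adjusted p = 0.541 by edgeR).

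Of the niche and survival signals of B cells and plasma cells, 14 of 19 were tested, 4 were fitted higher and 10 lower, and 0 had an unadjusted p under 0.05 (median −0.094). *Cxcl12*, the chemokine that retains plasma cells in bone marrow, had from 21603 to 28955 normalized counts with overlapping groups. Of the antibody receptors and the C1q genes, 11 of 13 were tested, 3 were fitted higher and 8 lower, and 0 had an unadjusted p under 0.05 (median −0.026). *Pigr*, the epithelial carrier of polymeric IgA, had at most 3 counts. T cell markers, as the lymphocytes closest to B cells, were fitted higher and lower in equal number (8 and 8 of 16, median −0.018), with *Thy1*, which fibroblasts also carry, the 1 gene at an unadjusted p under 0.05.

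The genes whose pattern was most like the 10 were looked for among the 14404 genes averaging 50 or more normalized counts, by Pearson correlation with the mean standardized log2 level of the 7 tested genes over 6 libraries. The 10 closest were *Dgkb*, *Cytl1*, *Por*, *Myocd*, *Arhgap10*, *Sft2d2*, *4932438H23Rik*, *Samd4*, *Srebf1* and *Timp4*, with r from 0.958 to 0.976. The search left out the members themselves, and *Ighd* and *Iglc1*, averaging 32.3 and 21.1 normalized counts, fell below its limit. The absence of immunoglobulin genes among the closest therefore carries no information. The mean level itself was 0.216, 0.268 and 0.654 in WT and −0.0187, 0.0308 and −1.15 in DTR libraries, in units of the standardized log2 level. Its lowest value was that of DTR replicate 3, and as *Ighm* and *Igha* ordered the libraries differently, the mean describes neither of them alone.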

How the data were processed

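Bulk RNA-seq of 3 DTR and 3 WT tendons was used. The kit was TruSeq Stranded mRNA (the labels add a SMARTER kit) and reads were single-end. Reads were trimmed with FastP and assigned to genes with featureCounts by the authors, who deposited the whole-number counts without normalization, together with normalized counts (a signal table) made with DESeq2 1.22.1, each column of which was the count column divided by 1 size factor. The aligner, build, annotation and strand setting are not given in the sources used here, which leaves the counts of overlapping and antisense genes uncertain.

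The count analysis used R 4.3.3 and edgeR 4.0.16 (TMM, filterByExpr by genotype, robust quasi-likelihood fit with genotype as the single term). Standard errors were obtained from the log2 fold change and the F statistic. P-values were Benjamini-Hochberg adjusted over 17496 genes, with a threshold of 0.05. The tests were tried on simulated counts with the spread that edgeR estimated. False calls were 8 of 16972 unchanged genes for edgeR, 9 of 16972 for limma-voom and 58 of 17239 for DESeq2. With a simulated log2 change of 2, edgeR recovered 78 of 98 genes, limma-voom 78 of 98 and DESeq2 84 of 100. With a change of 1 these were 48 of 98, 45 of 98 and 58 of 100. Alternatives used DESeq2 1.42.0 and limma 3.58.1, other scalings and filters, a replicate block, covariates (muscle, leukocyte, *Xist*, erythroid and keratinocyte genes, the last 2 chosen after the data were seen) and each library left out in turn. Depth was 42744138 to 48854310 counts. Replicates were separate tendons, and no 2 libraries of the same genotype agreed within sampling noise (chi-square per degree of freedom of 36.6 or more).

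The 21 gene lists, among them that of the members, were chosen with earlier results of these data known. Named genes were the 10 members, of each list the 3 most abundant tested genes and those with an unadjusted p under 0.05 in edgeR or an adjusted p under 0.05 in DESeq2, the 5 most abundant segments of each variable family, and the 10 genes most like the members; others that are named were chosen after their values were seen. Sequences and positions came from GRCm38 with GENCODE M21, in which 97.8% of the tested genes matched by symbol. Their build may differ from the authors' build. A few genes of the lists are not reported here by name.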

Additional observations from a re-analysis of the deposited data

How the results depend on the processing

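With 3 tendons per genotype, a difference must be large beside the spread between animals, and the low counts of *Ighg2c*, *Cd79a* and the variable segments add counting error. edgeR called 0 genes. The count was 466 with DESeq2, 83 without a filter on low counts, 1 with the pan leukocyte covariate, 27 with the erythroid covariate and from 0 to 544 when 1 library was left out, the highest without DTR replicate 2. Of the 7 tested members, 0 were called in 19 of 20 alternatives and 1 with DESeq2 (*Ighg2c*). Of these 7, 1 had an unadjusted p under 0.05, 0 with the erythroid covariate, and 1 to 3 when 1 library was left out, the highest without DTR replicate 1, where 7.26% of all genes did. Of all 10 members, 2 (*Ighg2c* and *Ighg2b*) had one with DESeq2 and 2 (again *Ighg2c* and *Ighg2b*) without a filter, where 7.69% and 7.75% of all genes did, and of the 5 members with at least 10 counts in every library 0 had one. With at least 10 counts in every library, *Ighg2c* was not tested by construction, and 0 members did not overlap. Members that did not overlap numbered 1, and 1 to 4 with 1 library left out, the highest without DTR replicate 1, where 24.4% of all genes did not overlap in either direction. The median log2 fold change of −0.35 ranged from −1.13 (without DTR replicate 1) to 0.017 (without DTR replicate 3).

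*Ighg2c* was lower in DTR in all 19 alternatives that tested it, from −4.26 to −2.67, with adjusted p from 3.3e-05 to 0.821. Its adjusted p was under 0.05 in 1 of them. *Igha* (0.06) had the opposite sign in limma-voom (−0.82), with library size only (−0.020), with the deposited normalized counts (−0.81), and with covariates for muscle (−1.42), leukocytes (−1.26), *Xist* (−0.053), erythroid (−1.06) and keratinocyte genes (−0.60), and ranged from −1.84 to 0.57 with 1 library left out. *Ighm* turned to 0.029 with the muscle and 0.16 with the erythroid covariate. *Jchain* turned to 0.0064 with *Xist* and ranged from −1.13 to 0.35 with 1 library left out. *Cd79a* turned to 0.27 with the erythroid covariate. *Cd79b* turned to −0.012 with the keratinocyte covariate and ranged from −0.087 to 0.26 with 1 library left out, and *Igkc* from −1.73 to 0.017. The summed erythroid markers did not overlap between the genotypes, so fits with the erythroid covariate cannot tell blood content from genotype. The causes were not tested.

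The replicate numbers are shared by both genotypes. Deviations from the group means correlated at −0.19, −0.15 and −0.68 between libraries with the same number. No library correlated best with its own number. The counts thus gave no sign of pairs, but whether libraries with the same number shared a batch was not tested. With the replicate block 1 gene was called, 0 members were called, and *Igha* was at −0.79.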

Other observations

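Genes of plasmacytoid dendritic cells, which share *Ly6d* and other genes with the B lineage, were measured as a neighbouring cell type. Of 10 listed and tested, 3 were fitted higher and 7 lower in DTR, with a median log2 fold change of −1.08. Of the 7, 2 had an unadjusted p under 0.05, beside 5.45% of all genes with DTR lower. *Siglech*, a receptor of these cells, had 130, 83.8 and 85.2 (WT) against 35.0, 56.4 and 52.4 (DTR) normalized counts, without overlap (log2 fold change −1.05 ± 0.31 (SE), adjusted p = 0.354 by edgeR and 0.0818 by DESeq2). *Cd209d*, a lectin of the DC-SIGN family, had 176, 92.3 and 169 (WT) against 28.8, 33.5 and 18.5 (DTR) normalized counts, also without overlap (−2.43 ± 0.37 (SE), adjusted p = 0.199 by edgeR and 6.4e-07 by DESeq2). *Ly6d* was highest in the libraries with most keratinocyte markers, and *Cox6a2* was lowest in the 2 libraries with fewest muscle markers.

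Of 10 macrophage markers, 5 were fitted higher and 5 lower (median 0.039), and *Cd163*, a scavenger receptor for haemoglobin, was the 1 gene at an unadjusted p under 0.05. It had 2512, 2713 and 2122 (WT) against 489, 1123 and 944 (DTR) normalized counts, without overlap (log2 fold change −1.52 ± 0.31 (SE), adjusted p = 0.293 by edgeR and 2.7e-06 by DESeq2). Of 7 NK markers, 6 were tested, 3 were fitted higher and 3 lower, and 0 had an unadjusted p under 0.05 (median 0.096). Of 8 lymphatic and lymph node stromal markers, 6 were tested, 3 in each direction (median −0.046), with *Lyve1* at −0.56 ± 0.21 (SE; adjusted p = 0.442 by edgeR). *Cr2* and *Madcam1*, which mark follicular dendritic cells and lymphoid stroma, had at most 11 and 2 counts. Tendon markers were fitted higher in 9 of 12 (median 0.31). At an unadjusted p under 0.05 there were 3 higher and 1 lower, beside 5.52% and 5.45% of all genes. All 15 muscle markers (median −1.13) and all 12 keratinocyte markers (median −3.30) were fitted lower, with 0 in either list at an unadjusted p under 0.05. All erythroid markers tested were fitted lower, with a median of −1.04.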
